A study of Mus musculus with 59 samples.

Results

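The 10 genes described here are transcripts of the stress response of the endoplasmic reticulum (ER) and of the transcription factor ATF4. They are Atf4, Ddit3, Atf3, Trib3, Asns, Sesn2, Xbp1, Herpud1, Edem1 and Atf6, taken by symbol from an expression table of 41227 genes, and all 10 were found in it. The study compared mouse models of spinocerebellar ataxia type 3, a polyglutamine disease in which the CAG repeat of ATXN3 is too long, and with it the glutamine (Q) tract of ataxin-3. RNA of the pons, part of the hindbrain, was sequenced from mice on a C57BL/6 background, with expression in FPKM, a count of fragments scaled by transcript length and sequencing depth. The first set of libraries held 3 homozygotes of a knock-in whose repeat of 82 Q is duplicated (dupKIHom), 3 Atxn3 knockouts (Atxn3KO) and 3 wild-type mice (WT). The second set held 6 heterozygotes of that duplicated knock-in (dupKIHet), 4 heterozygotes and 4 homozygotes of the knock-in with 82 Q once (KIHet and KIHom), 4 mice hemizygous for a human ATXN3 transgene on a yeast artificial chromosome with 84 Q (YACQ84), 4 with such a transgene of 15 Q (YACQ15), and 6 WT mice. The transgenic mice carry the human gene in addition to their own Atxn3. Age and sex are not given in the sources used here, and each set was tested within itself only.

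Unfolded protein in the ER is sensed by the membrane proteins PERK (Eif2ak3), IRE1 (Ern1) and ATF6. PERK phosphorylates the initiation factor eIF2 alpha, which slows translation while favouring that of ATF4, and ATF4 then switches on genes of amino acid supply, redox defence and, through CHOP (Ddit3), cell death. The other eIF2 alpha kinases reach ATF4 without ER stress, IRE1 splices the Xbp1 transcript into a form that encodes an active factor, and ATF6 is released from the ER membrane by cleavage. Total transcript levels such as these do not measure eIF2 alpha phosphorylation, ATF4 translation, Xbp1 splicing or ATF6 cleavage.

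The promoter elements through which these factors are known to act are shown for 3 of the genes and for 2 genes of the pathway, as the results concern whether the transcripts under these elements moved. RefSeq promoters (GRCm38.p6, from 250 bases before to 50 bases after the gene's start) matched 9 of the 10 genes, and both strands were searched. ATF4 composite elements (CARE, TGATGNAA) were found in 4 of these 9, Atf3, Asns, Herpud1 and Trib3, where the match starts 15 bases past the gene's start, against 3.97% of 32851 promoters. The ER stress element ERSE-II, ATTGGNCCACG, was found in Herpud1 alone of the 9, against 0.0365% of all promoters. The ER stress element ERSE, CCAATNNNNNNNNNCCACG, was found in none of the 9 and in 0.119% of all promoters. Among the promoters with ERSE is that of Hspa5, which encodes the ER chaperone BiP, while Slc7a11, a cystine transporter gene, held 2 CARE matches. Elements stand in capitals, 5′ to 3′ along each gene, and a match of letters is a description of the sequence only.
Atf3, chr1:191183406-191183473, reverse strand: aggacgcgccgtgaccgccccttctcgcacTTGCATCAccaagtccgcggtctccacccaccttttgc
Asns, chr6:7693210-7693262, reverse strand: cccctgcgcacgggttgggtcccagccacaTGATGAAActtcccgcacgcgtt
Herpud1, chr8:94386287-94386417, forward strand: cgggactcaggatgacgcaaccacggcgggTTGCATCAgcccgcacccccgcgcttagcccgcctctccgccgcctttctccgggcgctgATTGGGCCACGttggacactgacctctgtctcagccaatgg
Hspa5, chr2:34771995-34772073, forward strand: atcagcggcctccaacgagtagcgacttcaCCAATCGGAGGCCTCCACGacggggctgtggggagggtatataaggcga
Slc7a11, chr3:50443623-50443709, reverse strand: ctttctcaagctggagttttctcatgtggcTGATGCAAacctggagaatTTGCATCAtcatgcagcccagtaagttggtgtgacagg

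The libraries differed in ways that bear on the comparisons. Depth cannot be read from FPKM, so the error of every value below is the spread between libraries. Atxn3 stood at 0.335, 0.186 and 0.197 FPKM in Atxn3KO, against 6.23, 7.49 and 7.40 FPKM in WT of the first set. Neuronal markers, 10 genes, summed to 3063 to 3949 FPKM over the genotypes of the second set, WT included. In the first set they summed to 3242 to 3359 FPKM in dupKIHom and 3379 to 3515 FPKM in Atxn3KO. Both lay below the 3641 to 3830 FPKM of WT in that set. Nervous tissue was thus present in every library, while markers that set the pons apart from other brain regions were not examined. Ttr, which the choroid plexus makes in large amounts, exceeded 1000 FPKM in 2 of 3 Atxn3KO, 3 of 6 dupKIHet, 1 of 4 KIHet, 1 of 4 KIHom and 2 of 4 YACQ15 libraries, and in none of the dupKIHom, YACQ84 or WT libraries. In the second set the 6 libraries whose column number is 0, 1 per genotype and numbered 1 here, deviated from their genotypes in the same direction. Over all genes their pairwise correlations were 0.16 to 0.38 in 15 pairs, where libraries of unlike number averaged -0.03. The sources used here do not say what that number marks.

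None of the ER stress and ATF4 genes passed the test against WT in any model. Genes under 1 FPKM in all but at most 2 libraries of a set were not tested, which took out Trib3 in both sets and Atf3 in the first. In 61 tests of members against WT over 7 comparisons, limma on log2(FPKM + 1) with adjustment over all genes called 0 at an adjusted p under 0.05, and 5 had an unadjusted p under 0.05. The largest difference was 0.33 on the log2 scale, and the smallest limma adjusted p was 0.23. An unadjusted limma p under 0.05 was held by 4.49% to 13.0% of all genes in these 7 comparisons. Among all genes, 1.64% were called in dupKIHom against WT, 0.0142% in Atxn3KO and 1.24% in dupKIHom against Atxn3KO, with 0 of 8 members in each. Of all genes in the second set 2.53% were called in dupKIHet against WT, 0.115% in KIHet, 0.601% in KIHom, 0.527% in YACQ84 and 0.00676% in YACQ15, with 0 of 9 members in each. A count of 0 among 8 or 9 members lies near these background shares. The median absolute difference of the members was 0.05 in dupKIHom against WT, where that of all genes was 0.09, and 0.06 in dupKIHet against WT, where that of all genes was 0.07. In YACQ84 against WT it was 0.10 for the members and 0.06 for all genes.

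**Figure D1:**
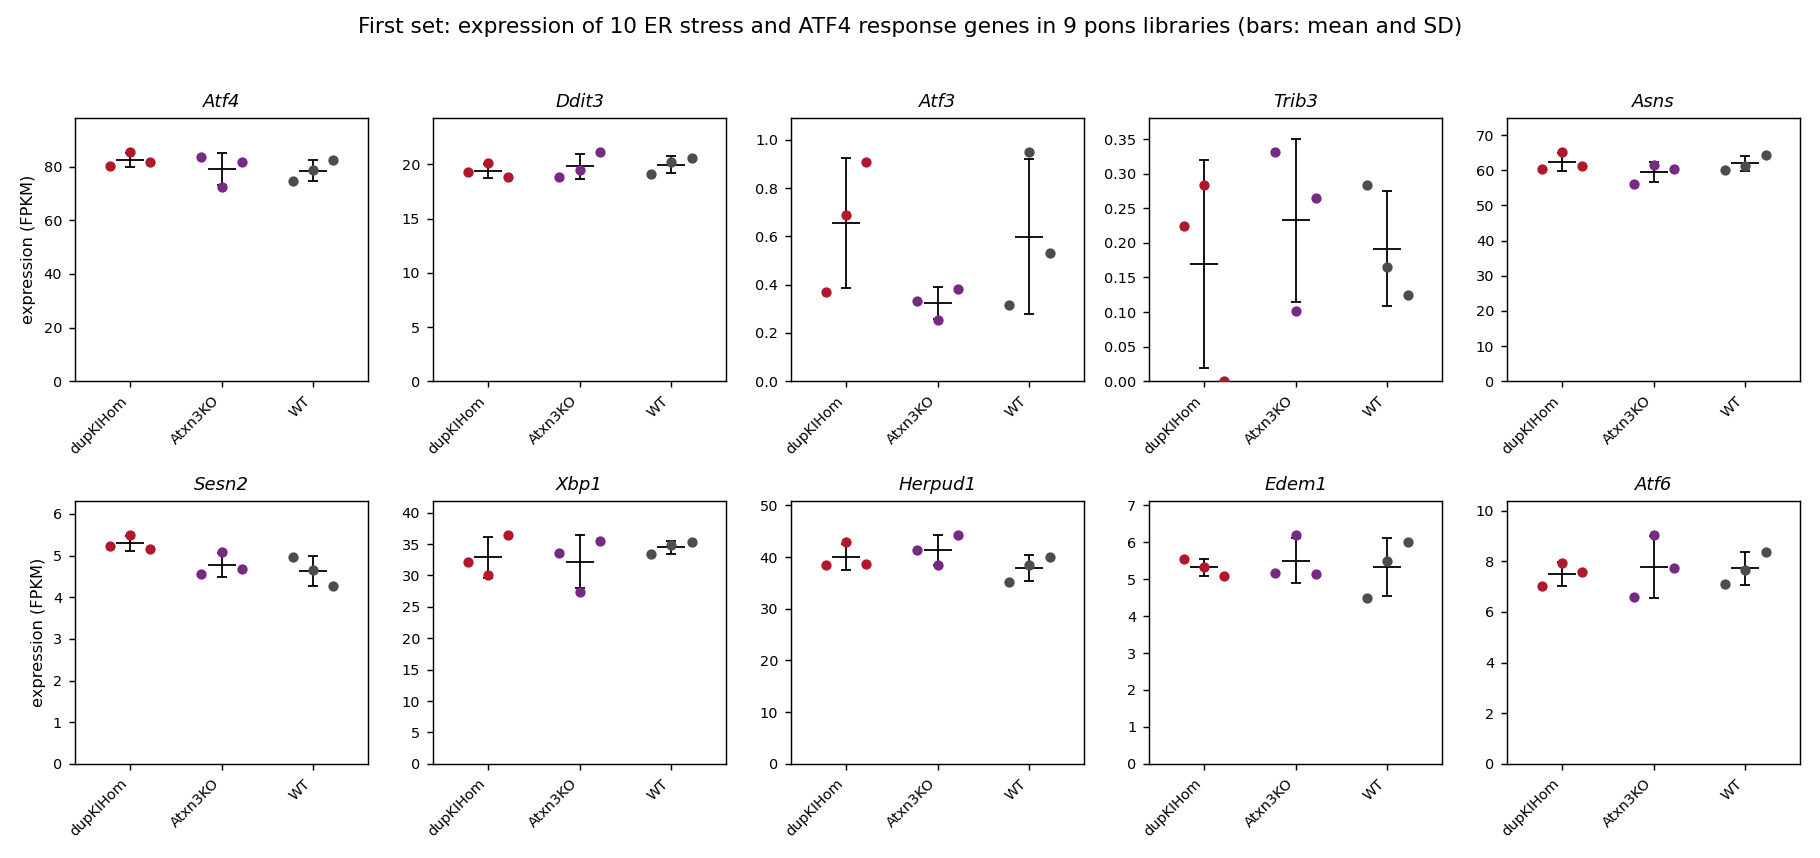
Expression in FPKM of the 10 genes in the 9 libraries of the first set, with a panel per gene, a point per library, and bars for the mean and SD of dupKIHom, Atxn3KO and WT. The genotypes overlap in nearly all panels. Sesn2 is the exception, with dupKIHom at 5.15 to 5.50 FPKM and WT at 4.26 to 4.97 FPKM, and it did not pass (limma adjusted p = 0.506).

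Atf4 encodes the central activator of the response. Its transcript stood at 80.1, 85.3 and 81.7 FPKM in dupKIHom and at 83.4, 72.4 and 81.7 FPKM in Atxn3KO, against 74.5, 78.6 and 82.4 FPKM in WT. In the second set it ranged from 59.4 to 78.4 FPKM in dupKIHet (median 66.5), and from 67.4 to 73.2 FPKM in WT (median 69.8). The YACQ84 libraries held 62.4, 67.7, 64.9 and 65.7 FPKM. Each genotype overlapped with the WT of its set, although 3 of 4 YACQ84 libraries lay below all WT libraries. That was the largest Atf4 difference, -0.10 on the log2 scale with a 95% confidence interval from -0.21 to 0.01 (limma adjusted p = 0.772). Over all 7 comparisons with WT the intervals of Atf4 stayed between -0.21 and 0.22, a fold of 0.862 to 1.16.

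Ddit3 encodes CHOP, the factor that links prolonged ER stress to cell death. Values of the first set were tight, at 19.3, 20.1 and 18.9 FPKM in dupKIHom and 18.9, 19.5 and 21.1 FPKM in Atxn3KO, against 19.1, 20.2 and 20.6 FPKM in WT. Those of the second set were broad within every genotype, from 19.4 to 29.6 FPKM in dupKIHet (median 22.8) and from 17.8 to 29.0 FPKM in WT (median 25.2). KIHet libraries held 22.6, 28.1, 27.2 and 31.3 FPKM and YACQ84 libraries 16.7, 25.9, 29.3 and 30.8 FPKM. The groups overlapped throughout, and the spread within genotypes was 0.25 on the log2 scale in the second set, against 0.06 in the first. Differences from WT reached at most 0.16, in KIHet (limma adjusted p = 0.785). The interval of that difference reached 0.47, a rise of 1.39-fold, while in the first set the intervals against WT ended at 0.11 in dupKIHom and 0.14 in Atxn3KO.

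Atf3, a stress-induced repressor and activator of the same family, and Trib3, a pseudokinase that ATF4 and CHOP induce, were near the lower limit of measurement. Atf3 had 0.359, 0.790, 0.120 and 0.719 FPKM in KIHom and 0.549, 0.510, 0.312 and 0.588 FPKM in YACQ84, against 0.402 to 1.31 FPKM in WT (median 0.958). YACQ15 libraries held 0.599, 1.51, 1.08 and 0.674 FPKM. Both KIHom and YACQ84 overlapped with WT, whereas all 4 YACQ84 libraries lay below all 4 YACQ15 libraries. Differences of Atf3 were -0.33 for KIHom and -0.32 for YACQ84 against WT (limma adjusted p = 0.381 and 0.726) and -0.38 for YACQ84 against YACQ15 (limma adjusted p = 0.792), on a scale that understates change at such low values. Atf3 of the first set had 0.369, 0.690 and 0.908 FPKM in dupKIHom and 0.334, 0.253 and 0.383 FPKM in Atxn3KO, against 0.316, 0.949 and 0.531 FPKM in WT, with overlap.

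Trib3 stayed under 1 FPKM in all 37 libraries. It had 0.0707, 0.868, 0.406 and 0.468 FPKM in YACQ84, against 0.138, 0.0683, 0.138 and 0.119 FPKM in YACQ15. Library 1 of YACQ84 lay inside the YACQ15 range and the other 3 above it. With no filter on low values that difference was 0.35 on the log2 scale and did not pass (limma adjusted p = 0.5). Trib3 of the first set was listed at 0 in dupKIHom library 3 and at 0.225 and 0.284 FPKM in the other 2 libraries, against 0.284, 0.166 and 0.125 FPKM in WT.

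Asns, the asparagine synthetase gene and a classical CARE target, was the steadiest member. It had 60.3, 65.1 and 61.3 FPKM in dupKIHom and 56.2, 61.6 and 60.4 FPKM in Atxn3KO, against 60.1, 61.3 and 64.3 FPKM in WT. Across all 28 libraries of the second set it ranged from 47.8 to 54.7 FPKM. Within genotypes its spread was 0.05 on the log2 scale in the second set, where the median over all genes was 0.14. The 95% intervals of its 7 comparisons with WT lay between -0.19 and 0.14, so that a fold above 1.10 or below 0.876 was outside them.

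Sesn2 encodes sestrin 2, a leucine-binding inhibitor of mTORC1 signalling. It stood at 5.24, 5.50 and 5.15 FPKM in dupKIHom and at 4.55, 5.09 and 4.69 FPKM in Atxn3KO, against 4.97, 4.66 and 4.26 FPKM in WT. All 3 dupKIHom libraries lay above all WT and all Atxn3KO libraries, by 0.16 on the log2 scale against WT with an interval from -0.03 to 0.36 (limma adjusted p = 0.506). How many of all genes lay apart in this way was not counted. Heterozygotes for the same allele overlapped with WT, with a difference of -0.02. Its largest difference in the second set was -0.13, in KIHom, at 3.78, 3.91, 4.09 and 4.77 FPKM, against 4.07 to 5.15 FPKM in WT (median 4.63, limma adjusted p = 0.47).

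**Figure D2:**
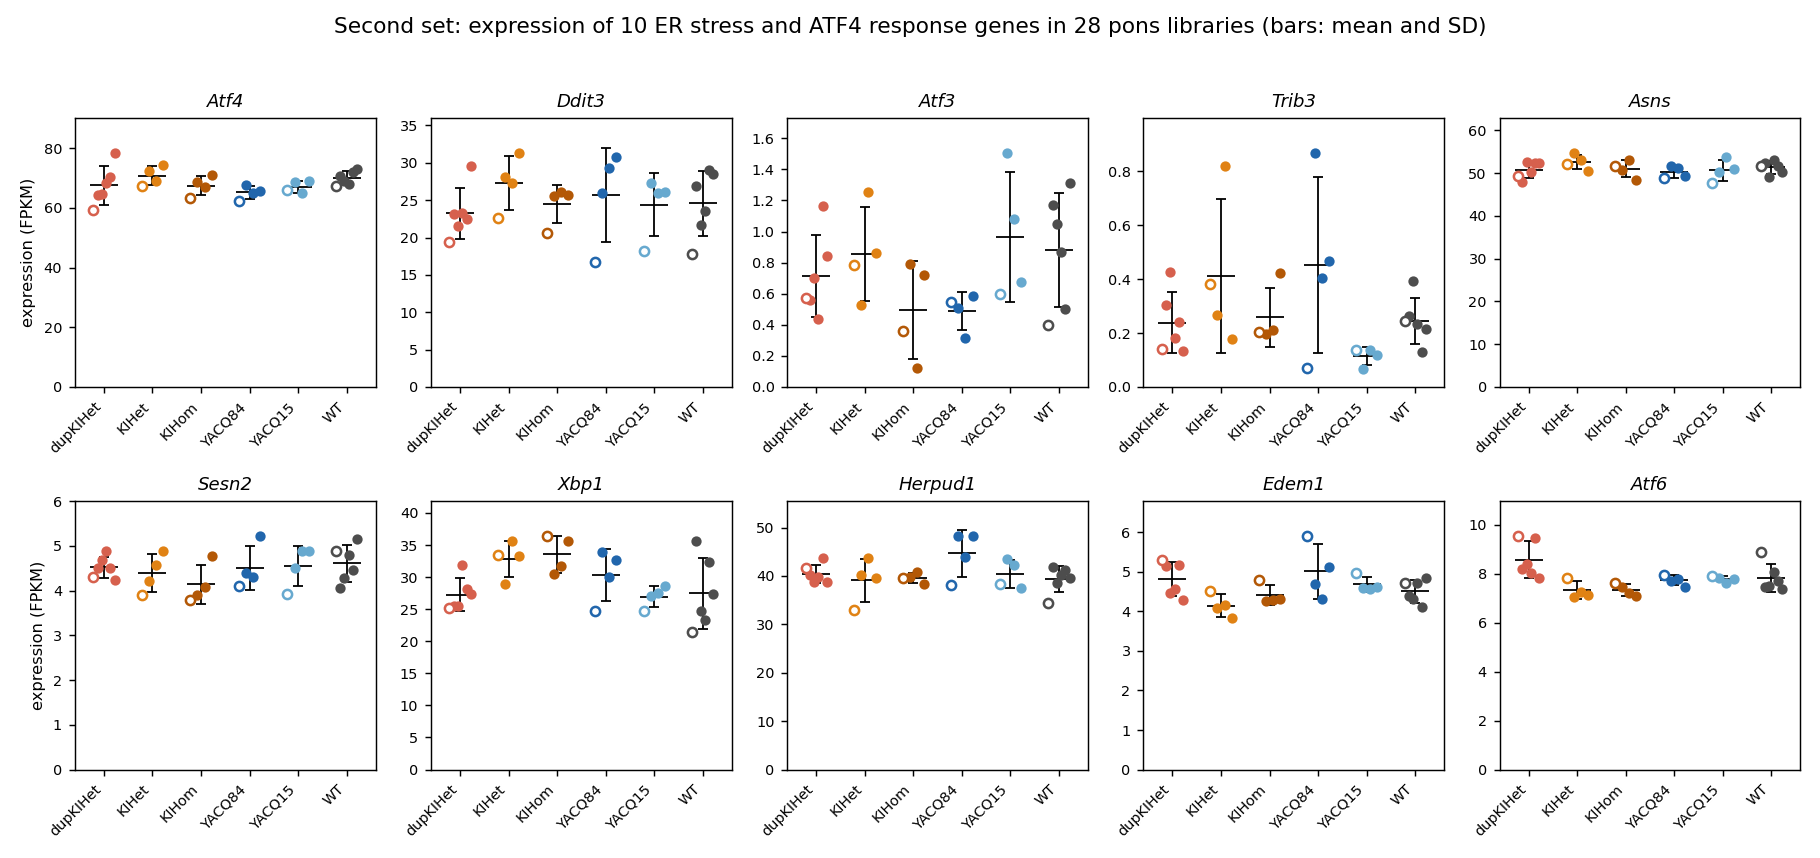
Expression in FPKM of the 10 genes in the 28 libraries of the second set, with a panel per gene, a point per library, and bars for the mean and SD of each genotype. Open points are the libraries numbered 1; they hold the lowest Ddit3 value in 6 of 6 genotypes and the highest Atf6 value in 6 of 6.

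Xbp1, the target of IRE1, came closest to a change against WT. KIHet libraries had 33.5, 29.0, 35.7 and 33.4 FPKM and KIHom libraries 36.5, 30.6, 31.7 and 35.6 FPKM, against 21.5 to 35.7 FPKM in WT (median 26.04). Both knock-in groups lay in the upper part of the WT range, and 1 of 8 libraries exceeded it. The differences were 0.27 in KIHet, interval 0.04 to 0.49, and 0.30 in KIHom, interval 0.07 to 0.52, and neither passed (limma adjusted p = 0.388 and 0.23). Leaving out single libraries moved the adjusted p of KIHom between 0.0576 without WT library 2, the highest of WT, and 0.467 without KIHom library 1. Without the libraries numbered 1 the KIHom difference was 0.20 (limma adjusted p = 0.444). In dupKIHet Xbp1 ranged from 25.1 to 32.0 FPKM (median 26.4), and the difference from WT was 0.01 (limma adjusted p = 0.994). Xbp1 of the first set had 32.1, 30.1 and 36.5 FPKM in dupKIHom and 33.5, 27.4 and 35.6 FPKM in Atxn3KO, against 33.4, 34.8 and 35.4 FPKM in WT, with overlap.

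Atf6 encodes the membrane-bound sensor itself. It ranged from 7.82 to 9.55 FPKM in dupKIHet (median 8.29), against 7.35 to 8.87 FPKM in WT (median 7.59). KIHet libraries held 7.84, 7.06, 7.26 and 7.15 FPKM, and KIHom libraries 7.62, 7.43, 7.19 and 7.07 FPKM. The dupKIHet libraries thus overlapped with WT, with 2 of 6 above all WT libraries. KIHet and KIHom overlapped with WT too, with 3 of 4 KIHet and 2 of 4 KIHom libraries below all WT libraries. Against WT the differences were 0.12 in dupKIHet, -0.08 in KIHet and -0.08 in KIHom (limma adjusted p = 0.251, 0.614 and 0.563). Atf6 of the first set had 7.00, 7.92 and 7.56 FPKM in dupKIHom and 6.59, 9.04 and 7.72 FPKM in Atxn3KO, against 7.11, 7.65 and 8.38 FPKM in WT, so that WT lay within the Atxn3KO range.

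Herpud1 encodes a membrane component of the complex that extracts misfolded protein from the ER, and its promoter, shown above, holds both a CARE and an ERSE-II match. YACQ84 libraries had 38.2, 48.3, 43.9 and 48.2 FPKM and YACQ15 libraries 38.3, 43.6, 42.2 and 37.5 FPKM, against 34.5 to 41.8 FPKM in WT (median 40.0). In YACQ84 3 of 4 libraries lay above all WT libraries, and library 1 lay within the WT range. The difference of YACQ84 from WT was 0.17, interval 0.03 to 0.32, and did not pass (limma adjusted p = 0.498). Without the libraries numbered 1, the limma adjusted p was 0.092. Herpud1 of the first set had 38.5, 42.9 and 38.7 FPKM in dupKIHom and 41.5, 38.4 and 44.3 FPKM in Atxn3KO, against 35.2, 38.5 and 40.1 FPKM in WT, and the genotypes overlapped.

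Edem1 encodes a lectin-like protein that hands misfolded glycoproteins to degradation. It ranged from 4.30 to 5.30 FPKM in dupKIHet (median 4.86), and from 4.11 to 4.84 FPKM in WT (median 4.55). KIHet held 4.51, 4.09, 4.17 and 3.83 FPKM, and YACQ84 5.92, 4.68, 4.32 and 5.13 FPKM. Each of these groups overlapped with WT. Differences from WT reached 0.12, in YACQ84 (limma adjusted p = 0.782). Edem1 of the first set had 5.54, 5.34 and 5.08 FPKM in dupKIHom and 5.17, 6.20 and 5.14 FPKM in Atxn3KO, against 4.48, 5.50 and 6.01 FPKM in WT, which spanned most of the other libraries.

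**Figure D3:**
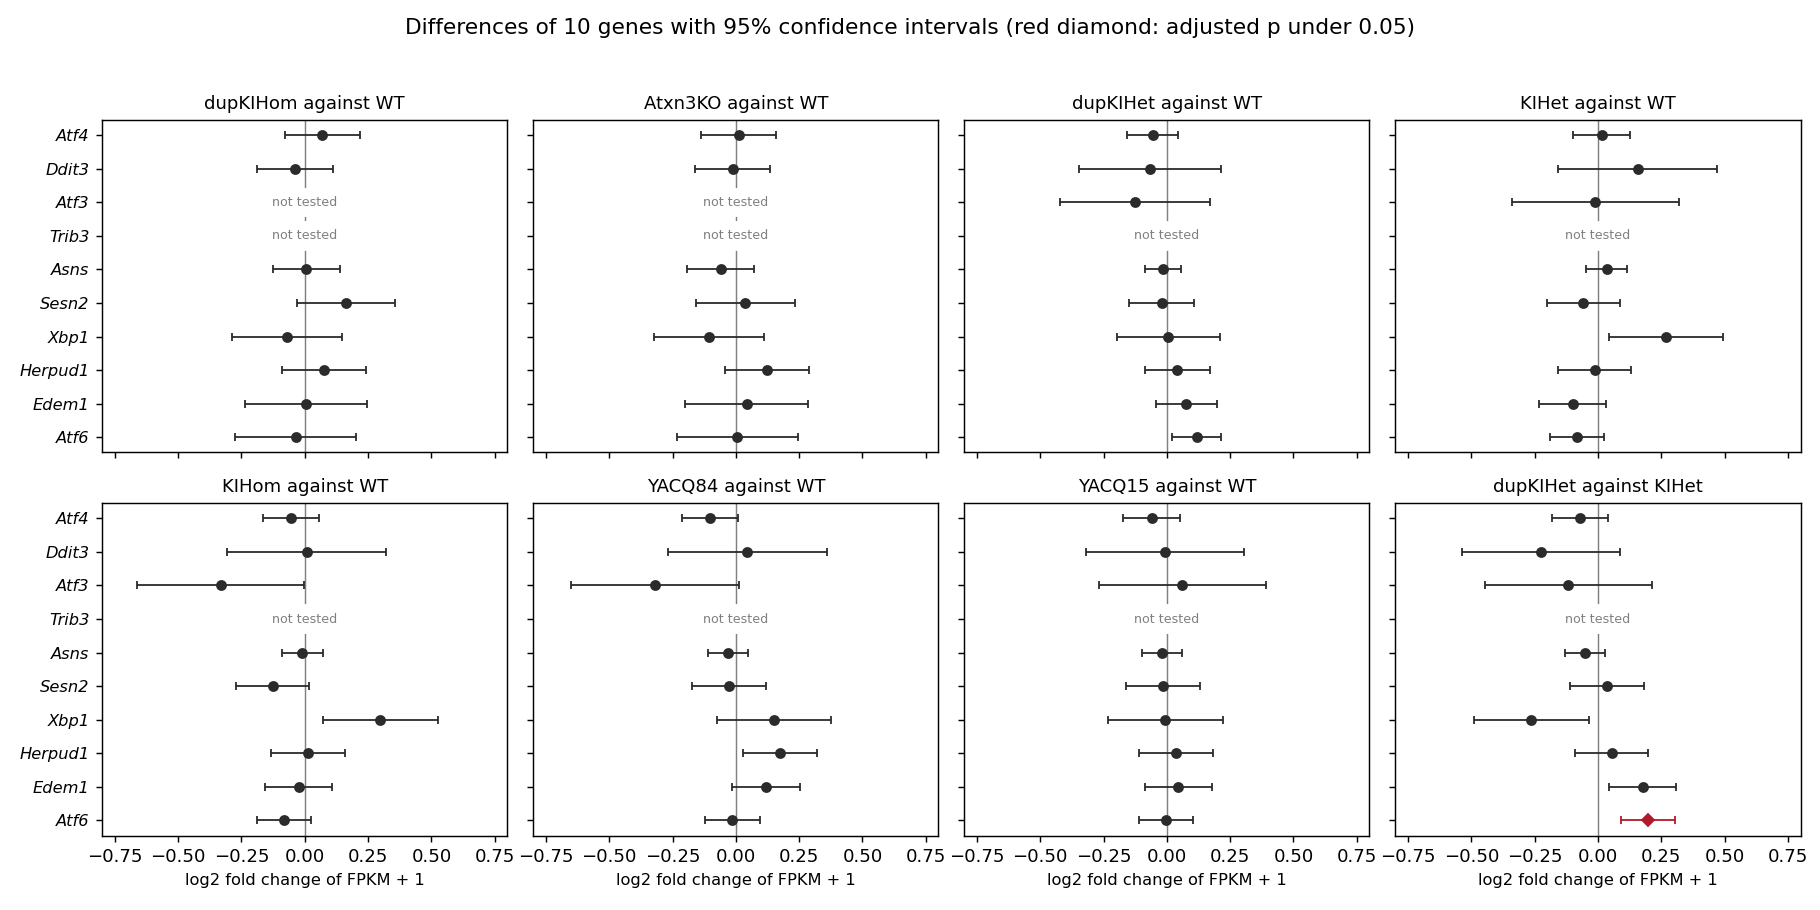
Log2 fold changes of FPKM + 1 (x axis) of the 10 genes in 7 comparisons with WT and in dupKIHet against KIHet, with 95% confidence intervals from limma. In the fit plotted, Atf6 in dupKIHet against KIHet, at 0.20, is the one value that passes the test; members under the filter on low values are marked as not tested.

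The duplicated and the single-repeat knock-in were also compared with each other, each with a single mutant allele. In dupKIHet against KIHet 10.7% of all 14802 genes were called, and 1 of 9 members, so the members' share was near the background. Atf6 was higher in dupKIHet, at 8.57 ± 0.744 FPKM (SD, n = 6), than in KIHet, at 7.33 ± 0.351 FPKM (SD, n = 4), by 0.20 on the log2 scale with an interval from 0.09 to 0.31 (limma adjusted p = 0.016). In dupKIHet 5 of 6 libraries lay above all KIHet libraries. With 1 library left out in turn, Atf6 passed in 9 of 10 fits (limma adjusted p = 0.0568 without KIHet library 2), and it passed without the libraries numbered 1 (0.0143). It did not pass when libraries were rescaled by their median ratios (0.17, limma adjusted p = 0.123) or when only these genotypes were fitted (limma adjusted p = 0.105). Xbp1 differed by -0.26 and Edem1 by 0.18, and neither passed (limma adjusted p = 0.127 and 0.0804). In a fit that also held a term for the library number, both passed (limma adjusted p = 0.0466 and 0.0196). Of all 14802 genes, 4240 were called in that fit, against 1577 without the term. Atf4 and Ddit3, both lower in dupKIHet, passed there too (0.0107 and 0.00626). The sources used here do not say what the number marks.

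The sums of the cell type markers moved in dupKIHet against KIHet too, where 10.7% of all genes were called. Summed over 10 endothelial markers, expression was 140 to 160 FPKM in dupKIHet, against 97.3 to 112 FPKM in KIHet, and 7 of the 10 were called higher. Summed over 10 astrocyte markers it was 1077 to 1260 FPKM in dupKIHet, against 1629 to 1708 FPKM in KIHet, and 7 of the 10 were called lower. In tissue RNA, fewer cells of a type and less RNA per cell cannot be told apart. The part of cell composition in the Atf6 difference was not tested.

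The transgenic lines were compared with each other as well, with 0.263% of all genes called in YACQ84 against YACQ15 and 0 of 9 members. Of the 9 tested, Atf3 was the single member with an unadjusted limma p under 0.05, against 6.01% of all genes. Trib3, tested without the filter on low values, had an unadjusted limma p of 0.00918. The closest of the others was Herpud1, at 44.7 ± 4.77 FPKM in YACQ84 and 40.4 ± 2.94 FPKM in YACQ15 (SD, n = 4 each), a difference of 0.14 (limma adjusted p = 0.95).

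Across the 28 libraries of the second set the members did not vary as a single group. Of 36 pairs of members, 3 had a Pearson correlation of log2(FPKM + 1) above 0.5 and 4 had one under -0.5. Ddit3 and Atf4 varied together (r = 0.62), as did Ddit3 and Xbp1 (0.54) and Edem1 and Atf6 (0.58). Between these clusters the sign turned: r was -0.63 for Ddit3 with Edem1 and -0.58 for Ddit3 with Atf6. These correlations describe libraries that share a set and, in part, a genotype. The 6 libraries numbered 1 held Ddit3 at 16.7 to 22.6 FPKM, the lowest of each of 6 genotypes, and Atf4 at its lowest in 5 of 6. They held Atf6 at 7.62 to 9.55 FPKM, the highest of each of 6, and Edem1 at its highest in 5 of 6.

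Genes most like a member were looked up among the genes tested in the second set, for the 3 members closest to a call against WT by unadjusted p. Xbp1 was most like Hspa5 (r = 0.91, rank correlation 0.92, n = 28 libraries), Pdia4, an ER protein disulfide isomerase (0.87), and Bcat2, a branched-chain amino acid transaminase (0.85). With the libraries numbered 1 left out, Xbp1 and Hspa5 correlated at 0.87 over 22 libraries, and within genotypes at 0.90. Atf6 was most like the predicted gene Gm1070 (0.89), Gucy1a2, a guanylate cyclase subunit (0.87), and Dcp2, an mRNA decapping enzyme (0.86). Herpud1 had weaker matches, Hps5, Ubr2 and Brap at 0.72 to 0.73, and 0.58 to 0.61 without the libraries numbered 1. Its rank correlation was 0.44 with Hps5, 0.62 with Ubr2 and 0.61 with Brap. Ddit3, added after its values were seen, was most like Ldhb, a lactate dehydrogenase subunit (0.93), Psmb5, a proteasome subunit (0.93), and Arl2, a small GTPase (0.92), and at 0.75 to 0.79 without those libraries.

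**Figure D4:**
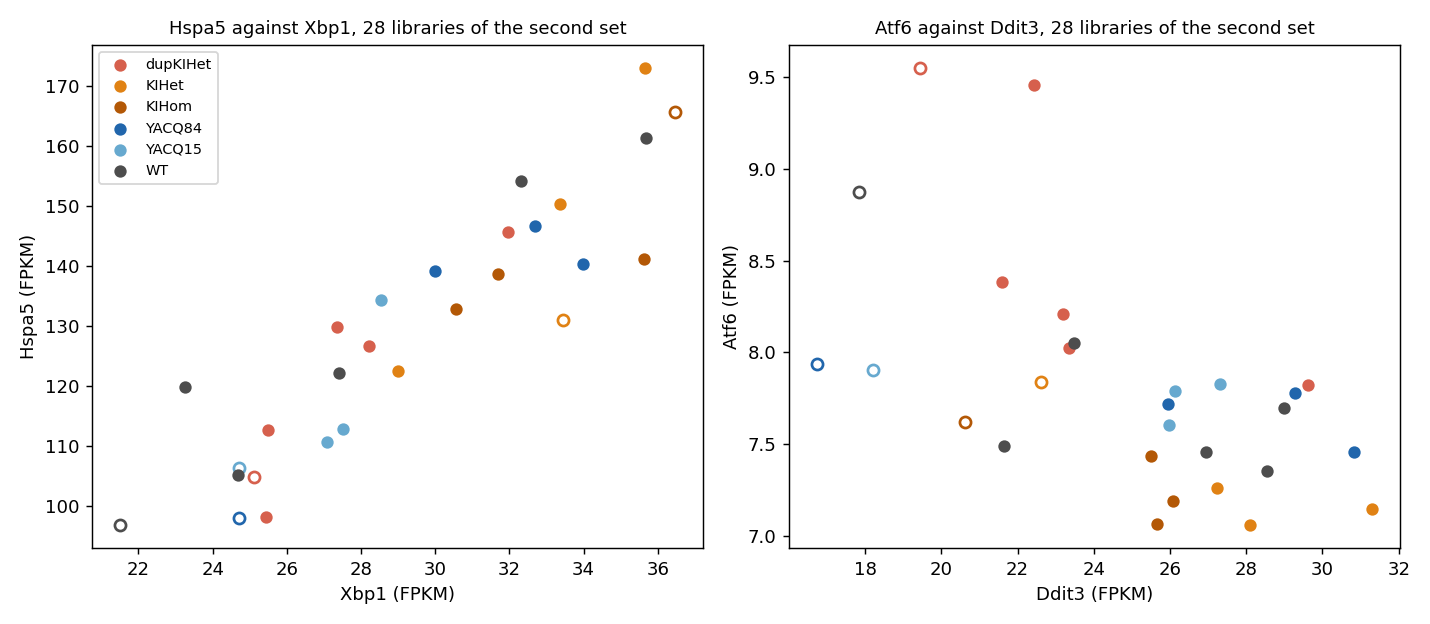
Hspa5 against Xbp1 and Atf6 against Ddit3, both axes in FPKM, with a point for each of the 28 libraries of the second set coloured by genotype and open for libraries numbered 1. Hspa5 follows Xbp1 across genotypes (r = 0.91), while Atf6 is high where Ddit3 is low (r = -0.58), with open points at the low end of Ddit3.

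The wider pathway was read from 6 lists with 121 genes tested in each set. In the first set 1 gene was called higher and 3 lower in dupKIHom against WT, where 1.64% of all genes were called. In Atxn3KO 0 were called (0.0142% of all genes), and 2 of the 121 had an unadjusted limma p under 0.05 (6.46% of all genes). In the second set 3 were called higher and 3 lower in dupKIHet against WT (2.53% of all genes), 1 lower in KIHet (0.115%), and 1 higher and 1 lower in KIHom (0.601%). In YACQ84 2 were called higher (0.527%). In YACQ15 0 were called (0.00676%), and 9 had an unadjusted limma p under 0.05 (4.49% of all genes). Comparisons within a set share their WT libraries, so a gene seen in several of them was not measured independently each time. In dupKIHet against KIHet 10 of the 121 were called higher and 3 lower, the same share as the 10.7% called among all genes.

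Chaperones and folding enzymes of the ER held no called gene in any of the 10 comparisons (0 of 23 tested, 0 to 4 with an unadjusted limma p under 0.05). Against WT the absence of calls lies near the background, at most 2.53% of all genes called. In dupKIHet against KIHet, 10.7% of all genes were called. An unadjusted limma p under 0.05 was held by 4.49% to 25.6% of all genes, by comparison. Hspa5 had 96.3, 92.7 and 106 FPKM in dupKIHom and 114, 82.7 and 141 FPKM in Atxn3KO, against 126, 123 and 127 FPKM in WT. All 3 dupKIHom libraries lay below all WT libraries, with a log2 difference of -0.35 (limma adjusted p = 0.353), and Atxn3KO spanned the WT range. In dupKIHet Hspa5 ranged from 98.2 to 146 FPKM (median 120), against 96.8 to 161 FPKM in WT (median 121). The median difference of the chaperones was -0.11 in dupKIHom against WT, where all genes had a median of 0.02, and 0.08 in KIHom against WT, where all genes had -0.02. It was -0.10 in YACQ15 and -0.03 in dupKIHet against WT, where all genes had -0.004 and 0.006. The YACQ15 median thus lay close to that of dupKIHom, each taken against the WT of its own set. Genes of ER-associated degradation, 24 of them tested in the first set and 23 in the other, likewise held no called gene, against the same shares of called genes. Of them 0 to 6 had an unadjusted limma p under 0.05. The 6 were in dupKIHet against KIHet, where 25.6% of all genes had one.

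Among the 13 kinases, factors and phosphatase subunits around eIF2 alpha, 1 was called, in dupKIHet against WT and against KIHet. Of all genes 2.53% and 10.7% were called there. Eif2ak2 encodes PKR, an eIF2 alpha kinase that responds to viral RNA and is induced by interferon. It ranged from 4.23 to 5.67 FPKM in dupKIHet (median 4.93), against 2.50 to 4.14 FPKM in WT (median 3.87), with 6 of 6 dupKIHet libraries above all WT libraries. It rose in dupKIHet by 0.37 on the log2 scale (SE 0.09, limma adjusted p = 0.0171), and it rose by 0.54 relative to KIHet (limma adjusted p = 0.00111). With any 1 library left out the call against WT still passed, in 12 of 12 fits. It did not pass when dupKIHet and WT alone were fitted (limma adjusted p = 0.0803) or without the libraries above 1000 FPKM of Ttr (0.0671). In dupKIHom it had 3.80, 4.22 and 3.78 FPKM, against 2.71, 2.54 and 2.80 FPKM in WT, which did not overlap and did not pass (0.42, limma adjusted p = 0.0676). Eif2ak3, the PERK gene, differed from WT by -0.10 in dupKIHom and by 0.13 in dupKIHet (limma adjusted p = 0.838 and 0.429).

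Sensors and bZIP factors of the same membrane system gave 1 call in dupKIHet and 1 in YACQ84 against WT, of 14 tested. Of all genes 2.53% and 0.527% were called in these comparisons. Both calls were Creb3l2, a membrane-bound relative of ATF6. It had 4.52 to 5.22 FPKM in dupKIHet (median 4.88) and 5.00, 5.20, 4.61 and 5.18 FPKM in YACQ84, against 3.49 to 4.39 FPKM in WT (median 4.04). Neither group overlapped with WT, and Creb3l2 rose by 0.24 in dupKIHet and by 0.27 in YACQ84 (limma adjusted p = 0.0103 and 0.0371). With 1 library left out in turn, the YACQ84 call held in 2 of 10 fits (limma adjusted p = 0.148 without YACQ84 library 2). It also ended when only YACQ84 and WT were fitted (0.271), and the dupKIHet call ended without the libraries above 1000 FPKM of Ttr (0.0746). Ern1, the IRE1 gene, did not pass against WT (0.17 in dupKIHet and -0.20 in KIHom, limma adjusted p = 0.168 and 0.189), and in dupKIHet it rose by 0.32 relative to KIHet (limma adjusted p = 0.00305).

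Of the target genes of ATF4, Psat1 rose in most models with an expanded repeat. Psat1 encodes phosphoserine aminotransferase of serine synthesis. It had 129, 133 and 121 FPKM in dupKIHom and 83.9, 81.9 and 88.3 FPKM in Atxn3KO, against 86.9, 95.04 and 107 FPKM in WT. In the second set it ranged from 94.9 to 112 FPKM in dupKIHet (median 101), and from 75.3 to 92.7 FPKM in WT (median 82.2). KIHom held 115, 114, 116 and 116 FPKM, YACQ84 112, 95.4, 109 and 100.1 FPKM, and YACQ15 75.4, 81.7, 76.2 and 72.7 FPKM.

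None of dupKIHom, dupKIHet, KIHom and YACQ84 overlapped with WT in Psat1. On the log2 scale it rose by 0.41, 0.28, 0.45 and 0.31 in these 4 genotypes (limma adjusted p = 0.0217, 0.0021, 0.000331 and 0.0097). Psat1 lay above all WT libraries in 4 of 4 KIHet libraries too, by 0.24, and did not pass there (limma adjusted p = 0.0986). It differed by -0.18 in Atxn3KO and by -0.13 in YACQ15 (limma adjusted p = 0.76 and 1). The transgenes differed from each other, with Psat1 higher in YACQ84 than in YACQ15 by 0.44 (limma adjusted p = 0.000837), and dupKIHom was above Atxn3KO by 0.58 (limma adjusted p = 0.00343). With 1 library left out in turn, the dupKIHom call held in 2 of 6 fits (limma adjusted p = 0.11 without dupKIHom library 2) and the YACQ84 call in 8 of 10 (0.0784 without YACQ84 library 1). The dupKIHet call ended without the libraries above 1000 FPKM of Ttr (0.0943), and with only the compared genotypes fitted YACQ84 passed neither against WT nor against YACQ15 (0.271 and 0.159). Phgdh and Psph, the other enzymes of that pathway, did not pass against WT in any genotype; in dupKIHom they differed by 0.25 and -0.04 (limma adjusted p = 0.146 and 0.915).

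The ATF4 target genes called lower in mice with the duplicated knock-in were Slc7a11, Slc6a9 and Slc38a2 in dupKIHom and Slc7a11, Slc6a9 and Slc3a2 in dupKIHet, all of amino acid transport. Of the listed ATF4 target genes, 27 were tested in dupKIHom and 28 in dupKIHet, with 3 called lower and 1 higher in each against WT. Of all genes 1.64% and 2.53% were called there. Slc7a1 and Slc7a5, transporter genes of the same list, did not pass against WT: Slc7a1 differed by -0.21 in dupKIHom and 0.18 in dupKIHet, and Slc7a5 by 0.10 and 0.04 (limma adjusted p from 0.336 to 0.89). Slc7a11, whose promoter with 2 CARE matches is shown above, had 2.27, 1.89 and 2.38 FPKM in dupKIHom, against 3.75, 4.64 and 4.65 FPKM in WT. In dupKIHet it ranged from 2.13 to 2.72 FPKM (median 2.51), against 3.62 to 5.00 FPKM in WT (median 4.33). The groups were apart in both sets, and Slc7a11 fell by 0.75 in dupKIHom and by 0.64 in dupKIHet (limma adjusted p = 0.01 and 0.00417). It did not pass in KIHet, KIHom, YACQ84 or YACQ15 (limma adjusted p of 0.91 to 1), and in dupKIHet it fell by 0.63 relative to KIHet (limma adjusted p = 0.00668). With 1 library left out in turn, the dupKIHom call held in 3 of 6 fits (limma adjusted p = 0.0532 without dupKIHom library 2), and the dupKIHet call ended without the libraries above 1000 FPKM of Ttr (0.0891).

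The glycine transporter gene Slc6a9 fell by 0.46 in dupKIHom and by 0.32 in dupKIHet (limma adjusted p = 0.00605 and 0.000697), to 82.2 ± 1.91 FPKM in dupKIHom, against 114 ± 9.97 FPKM in WT (SD, n = 3 each). In the single-repeat knock-ins Slc6a9 differed by -0.26 in KIHom, with 4 of 4 libraries below all WT libraries, and by -0.24 in KIHet, with 3 of 4 below, and did not pass (limma adjusted p = 0.0531 and 0.117). Slc38a2, a neutral amino acid transporter gene, fell by 0.50 in dupKIHom (limma adjusted p = 0.0126), with 39.7, 43.4 and 36.2 FPKM, against 51.1, 56.2 and 63.0 FPKM in WT. In dupKIHet Slc38a2 differed by -0.33, with 4 of 6 libraries below all WT libraries, and did not pass (limma adjusted p = 0.0571). Slc3a2, the heavy chain shared by Slc7a11 and other carriers, fell by 0.23 in dupKIHet (limma adjusted p = 0.000451), to 35.3 ± 1.82 FPKM, against 41.5 ± 1.30 FPKM in WT (SD, n = 6 each). In dupKIHom Slc3a2 differed by -0.15, with 3 of 3 libraries below all WT libraries, and did not pass (limma adjusted p = 0.257). In KIHom Slc3a2 differed by -0.11, with 4 of 4 libraries below all WT libraries, and did not pass (limma adjusted p = 0.235). The dupKIHom call of Slc38a2 held in 2 of 6 fits with 1 library left out, with a limma adjusted p of up to 0.0535. Astrocyte markers moved alongside: their sum was 1236 to 1321 FPKM in dupKIHom, against 1741 to 1909 FPKM in WT, and 1077 to 1260 FPKM in dupKIHet, against 1677 to 1870 FPKM in WT, with 7 of 10 called lower in each comparison. Of oligodendrocyte markers 5 of 10 were called lower in dupKIHom and 4 of 9 in dupKIHet. Of neuronal markers 2 of 10 were called lower in dupKIHom and 0 of 9 in dupKIHet. Among 10 endothelial markers 1 was called lower in dupKIHom, and 3 were called higher in dupKIHet. For the meninges 1 of 9 markers was called lower in dupKIHom and 0 of 10 in dupKIHet. Of all genes 1.64% were called in dupKIHom and 2.53% in dupKIHet. The part of any of these marker lists in the transporter differences was not tested.

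Ddit4, a stress-induced inhibitor of mTORC1, was called lower against WT in the single-repeat knock-ins alone. It had 20.8, 21.9, 22.4 and 21.9 FPKM in KIHet and 23.6, 25.0, 24.6 and 25.6 FPKM in KIHom, against 30.3 to 44.8 FPKM in WT (median 36.0). Neither group overlapped with WT, and the differences were -0.68 in KIHet and -0.51 in KIHom (limma adjusted p = 0.000804 and 0.0127). The KIHom call held in 8 of 10 fits with 1 library left out (limma adjusted p = 0.0616 without KIHom library 1). Fitted with WT alone, neither passed (limma adjusted p = 0.0887 in KIHet and 0.15 in KIHom). In dupKIHet it ranged from 27.3 to 36.7 FPKM (median 30.6) and did not pass against WT (-0.21, limma adjusted p = 0.272). YACQ15 libraries held 32.2, 26.5, 29.3 and 27.05 FPKM, with 3 of 4 below all WT libraries. The YACQ15 difference was -0.30, interval -0.49 to -0.10, and did not pass. In YACQ84 the difference was -0.10, interval -0.29 to 0.10, and did not pass either. Mean Ddit4 thus lay below WT in every other genotype of the second set. In the first set it differed from WT by 0.10 in dupKIHom and by -0.11 in Atxn3KO. Early genes of neuronal activity summed to 48.3 to 57.3 FPKM in KIHet and 48.9 to 53.8 FPKM in KIHom, against 56.6 to 80.0 FPKM in WT, with 1 of 8 called lower in KIHom and 0 of 8 in KIHet, where 5 had an unadjusted limma p under 0.05. Endothelial markers summed to 97.3 to 112 FPKM in KIHet and 94.4 to 106 FPKM in KIHom, against 96.6 to 150 FPKM in WT, with 2 of 10 called lower in KIHom and 0 of 10 in KIHet, where 5 had an unadjusted limma p under 0.05. Of all genes 0.115% were called in KIHet and 0.601% in KIHom, and 10.6% had an unadjusted limma p under 0.05 in KIHet. The part of either marker list in the Ddit4 difference was not tested. Cytosolic tRNA synthetases, a further group of ATF4 targets, held 0 called genes of 20 against WT in each comparison. That is near the background of at most 2.53% of all genes called. Of the 20, 0 or 1 had an unadjusted limma p under 0.05, where 4.49% to 13.0% of all genes had one.

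**Figure D5:**
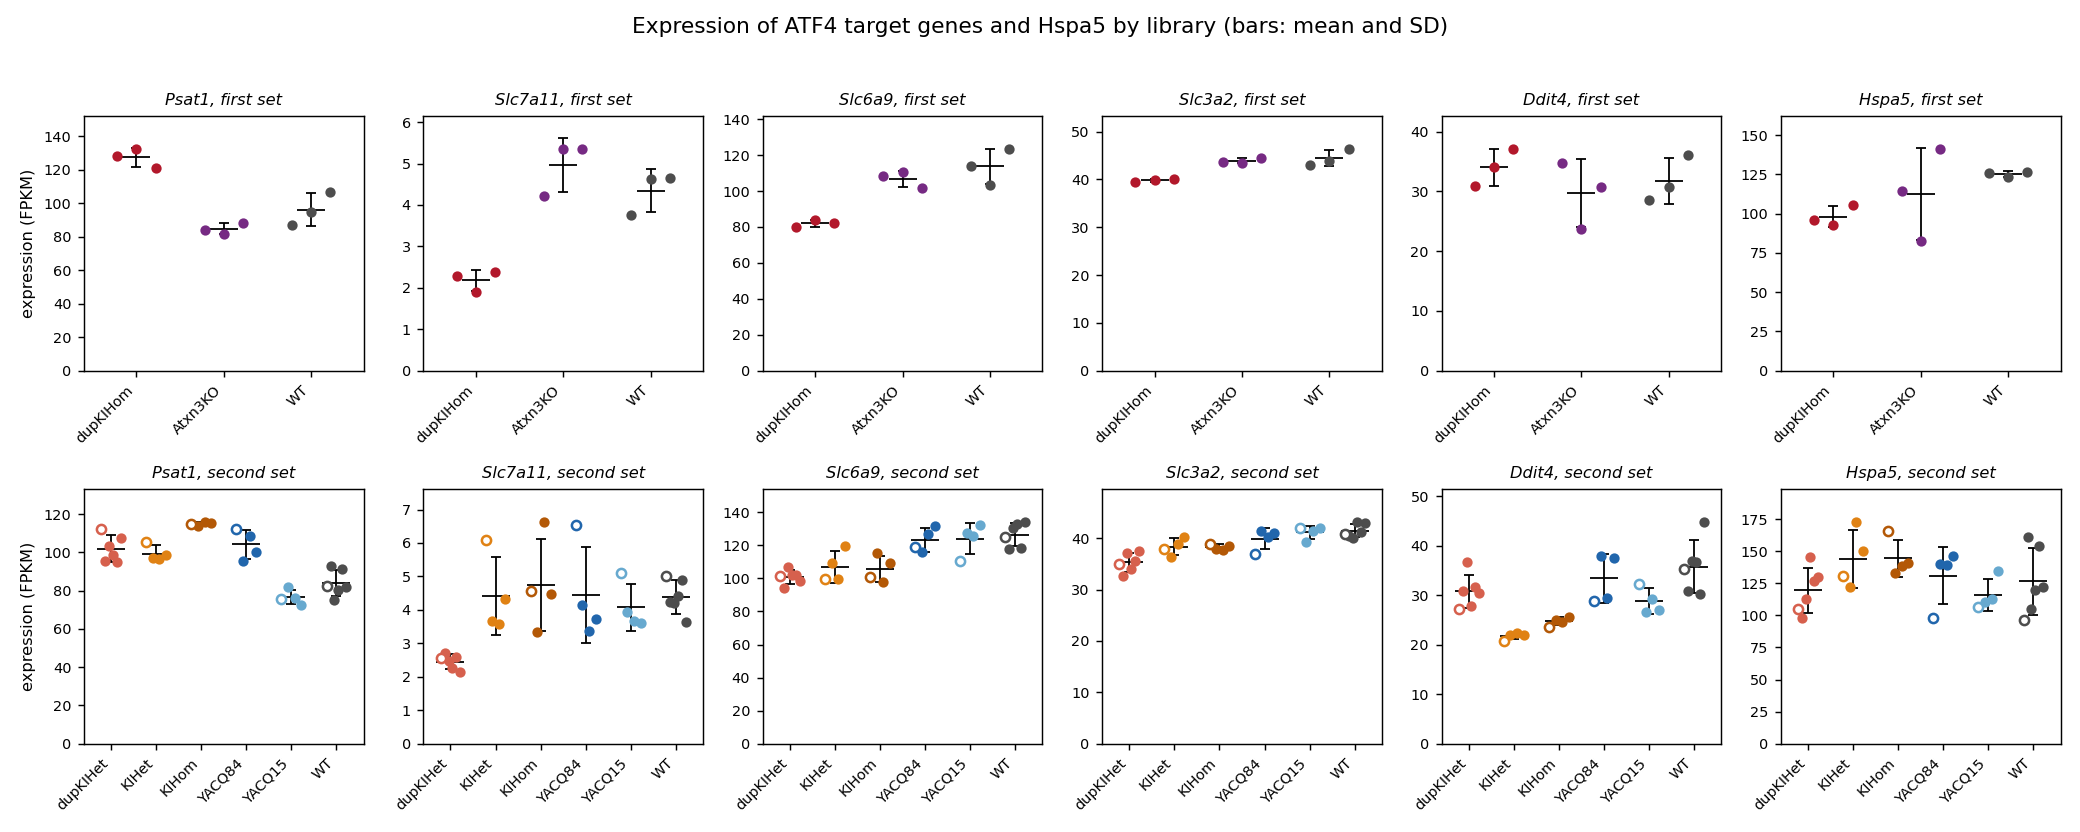
Expression in FPKM of the ATF4 target genes Psat1, Slc7a11, Slc6a9, Slc3a2 and Ddit4 and of Hspa5, with a point per library and bars for the mean and SD, in the first set (upper row) and the second set (lower row, open points numbered 1). Psat1 is higher and Slc7a11 lower in dupKIHom and dupKIHet than in WT, with no overlap, while Hspa5 of dupKIHet overlaps with WT.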

How the data were processed

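The deposited values are FPKM per gene and library, computed by the authors. Per the submitters' processing notes, the tools were TopHat2, Cuffdiff, DESeq, Trimmomatic, FastQC and CASAVA 1.8.2, with no role given, and the genome build was mm8. Of 59 samples, 37 have a column in the table used here and the other 22 were not analysed here. Columns were mapped to samples by name. For 6 WT columns the name matched more than 1 sample of that genotype, so they were used as WT libraries with no sample of their own, and their place in a set followed the arrangement of the table. The design text describes the libraries as single mice. From 41386 lines, 27 with a gene name turned into a date were left out and 132 repeats of a symbol were summed. Genes listed at 0 throughout a genotype beside clear values in another (7 and 12 genes by set) were not tested. How reads of similar or antisense genes were divided is not given in the sources used here.

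Values were taken as log2(FPKM + 1), and genes with at least 1 FPKM in 3 libraries of a set were kept, 14059 and 14802 genes by set. Each set was fitted with limma 3.58.1 in R 4.3.3, with a mean for every genotype and a variance trend, and all p-values come from these two-sided tests, adjusted after Benjamini and Hochberg across the genes kept. Fold changes on this scale understate those of low genes. The script was tested on simulated data. The 10 members and the pathway lists were chosen with earlier results of these data known. Besides all members, the text names up to 5 called genes per list and comparison, Hspa5, Eif2ak3, Ern1 and Atxn3; Phgdh, Psph and unadjusted results of other listed genes were added after their values were seen. Alternatives tried were another scaling, a pseudocount of 0.1, no filter, a replicate block, only the compared genotypes, each library left out, libraries above 1000 FPKM of Ttr left out and, chosen after seeing the data, the libraries of column number 0 left out. Promoters come from RefSeq (GRCm38.p6), so their coordinates are not those of the deposited build.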

Additional observations from a re-analysis of the deposited data

Results flagged for a closer look

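Of 60 groups of 4 to 6 libraries, taken gene by gene over the members in the second set, 5 had a single library far from the rest, where chance gives about 1 in 20. Library 1 of KIHom had Ddit3 at 20.62 FPKM, and the other 3 libraries 25.5 to 26.1 FPKM. Library 1 of YACQ15 had Ddit3 at 18.2 FPKM, and the others 25.98 to 27.3 FPKM. Edem1 stood apart in the same libraries, at 4.797 FPKM in KIHom library 1 (others 4.28 to 4.32) and at 4.975 FPKM in YACQ15 library 1 (others 4.57 to 4.62). Trib3 had 0.422 FPKM in KIHom library 4, and 0.198 to 0.211 FPKM in the others, a difference of low values.

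Some genes differed between models in a direct test. In dupKIHet against KIHet, limma called Atf6 (0.1986 on the log2 scale) among the members. From the pathway lists it called Eif2ak2 (0.5427), Creb3l2 (0.3399), Ern1 (0.3213), Ddit4 (0.4754), the arginine and neutral amino acid transporter genes Slc7a1 (0.4094) and Slc7a5 (0.3576), the lipoprotein receptor gene Vldlr (0.2042), the isoleucyl-tRNA synthetase gene Iars (0.1856) and the bZIP genes Atf7 (0.4312) and Atf2 (0.2396), all higher in dupKIHet, and Slc7a11 (-0.6282), lower. Slc38a2 (-0.35) and Psph (-0.28), also lower there, passed as well. That comparison called 10.7% of all genes. With 1 library left out in turn, Atf2 passed in 3 of 10 fits, Vldlr in 6 and Atf7 in 7, and with median-ratio scaling Atf2 and Vldlr did not pass (limma adjusted p = 0.157 and 0.123). In YACQ84 against YACQ15 limma called Psat1 (0.4376).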

How the results depend on the processing

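In each fit against WT, all alternatives and each left-out library included, 0 members were called. The smallest limma adjusted p in those fits was 0.0507, for Atf6 in dupKIHet with a replicate block. In dupKIHet against KIHet the count of members called, 1, became 0 with median-ratio scaling, 0 with only these 2 genotypes fitted, and 0 to 2 when leaving out each library (0 without KIHet library 2 and 2 without dupKIHet library 6). With the replicate block it was 5: Atf4 (-0.12), Ddit3 (-0.32), Xbp1 (-0.30), Edem1 (0.19) and Atf6 (0.21). That fit called 4240 of all 14802 genes. Equal numbers did not mark pairs by the rule used (correlations from -0.25 to 0.38 in 62 pairs of the second set). Those pairs still averaged 0.11, where pairs of unlike number averaged -0.03. By column number the averages were 0.29 for 0, 0.05 for 1, 0.0009 for 2 and 0.12 for 3. Of 28 libraries, 13 correlated best with a library of their own number. Counts over all genes moved more. Against WT, over all settings that kept the genotypes whole or left out Ttr-rich or number 0 libraries, they lay between 144 and 332 in dupKIHom (230 as reported), 2 and 9 in Atxn3KO (2), 222 and 900 in dupKIHet (375), 0 and 358 in KIHet (17), 6 and 711 in KIHom (89), 3 and 182 in YACQ84 (78) and 0 and 2 in YACQ15 (1). They lay between 106 and 342 in dupKIHom against Atxn3KO (175), 691 and 4240 in dupKIHet against KIHet (1577) and 0 and 138 in YACQ84 against YACQ15 (39). In the second set the highest counts came from the replicate block, except in YACQ15, and the lowest from fitting the 2 genotypes alone. The cause was not tested. Median-ratio scaling moved the split of dupKIHet against KIHet over all genes to 876 higher and 764 lower, against 1161 and 416. For single genes, 237 of 272 results under other settings kept their side of the threshold, 33 no longer passed and 2 newly passed, and of 378 with a library left out 333 kept it. No value changed its sign where it was called. Without the Ttr-rich libraries 1 Atxn3KO library remained, which was assumed to vary like the others. Depth is unknown, and the intervals of member differences from WT reach from -0.66, for Atf3, to 0.52, for Xbp1.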
